A study of Rattus norvegicus with 8 samples.

Results

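The maturation of an oligodendrocyte can be read from the structural proteins of myelin and from enzymes, linker proteins and membrane-associated proteins that appear as the cell differentiates. Of the latter, 9 genes were examined in rat oligodendrocyte progenitor cells (OPCs) given IL-4. The genes were chosen by name as known markers, 7 of late maturation (Hapln2, Ermn, Ndrg1, Plekhb1, Aspa, Ugt8 and Fa2h) and 2 of an early, newly differentiating stage (Bcas1 and Enpp6). Of the 9, 8 have a probe set that carries their symbol alone in the probe table of the array, out of 15037 gene symbols in all, and each of the 8 has 1 such probe set. Enpp6 has none there. Its probe set could be identified only from the study's own list of genes that fell, so Enpp6 is described apart, without a test.

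The cells came from brains of Sprague Dawley rat pups of both sexes at postnatal day 1 to 2, and OPCs were shaken off mixed glial cultures after an earlier round of shaking to remove microglia. Cultures received PBS (4 arrays) or IL-4 at 20 ng/mL (4 arrays) for 3 days in a serum-free defined medium, to which the methods add PDGF and bFGF for OPC maintenance, and the methods describe 4 biologic replicates per condition. Total RNA of each whole culture was hybridized to an Affymetrix Clariom S rat array. Values are log2 RMA signals, on which a difference of 1 is a 2-fold change. They are RNA levels of a mixed culture, in which fewer cells of a type and less RNA per cell cannot be told apart.

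A myelinating oligodendrocyte wraps axons with membrane that is rich in galactolipids, remodels its actin cytoskeleton as the wraps compact, and organizes the extracellular matrix at the gaps between myelin segments, the nodes of Ranvier. Late maturation genes serve these tasks, whereas Bcas1 and Enpp6 mark cells that have just left the progenitor state. The arrays were run to learn which genes IL-4 changes in OPCs.

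The late genes did not change in a single direction. Hapln2, Ermn and Ndrg1 rose 4.65-fold to 8.3-fold with IL-4, Plekhb1 fell 2.94-fold, and Aspa, Ugt8 and Fa2h did not pass the test. The early gene Bcas1 rose 1.39-fold. Thus 4 of the 8 measured genes were higher and 1 lower at an adjusted p under 0.05 from limma, beside 12% of all 23188 probe sets higher and 19.7% lower. With more than a 2-fold change, 3 were higher and 1 lower, beside 2.16% and 2.34% of all probe sets. For 5 of the 8 genes there was no overlap between the conditions, beside 32.8% of all probe sets. The median log2 difference was 0.34 over the 8 genes and -0.068 over all probe sets. These shares are given as a description, since the genes were listed with results of these arrays known.

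**Figure D1:**
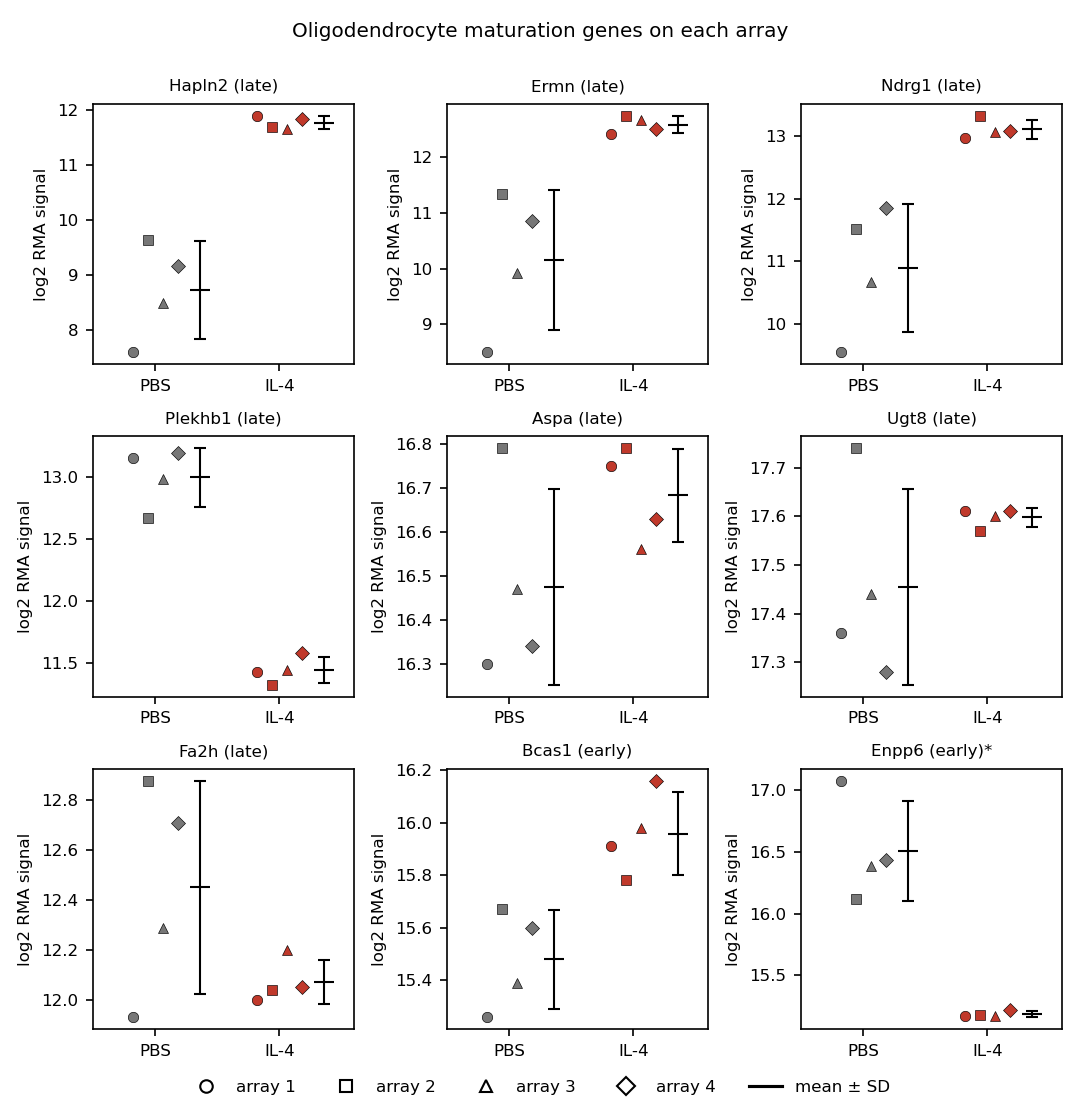
Log2 RMA signal of each gene (vertical axis, scaled separately per panel) on the 4 PBS arrays (grey) and the 4 IL-4 arrays (red), with marker shape giving the array number and a bar the mean ± SD (n = 4). Hapln2, Ermn, Ndrg1 and Bcas1 lie higher on all IL-4 arrays, Plekhb1 and Enpp6 lower, and Aspa, Ugt8 and Fa2h overlap. The asterisk marks Enpp6, whose probe set was identified from the study's own list of genes that fell, so its direction was fixed by the choice.

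Hapln2 encodes a hyaluronan and proteoglycan link protein that holds the matrix at nodes of Ranvier. Its log2 signal was 7.59, 9.64, 8.49 and 9.16 on PBS arrays 1 to 4 and 11.90, 11.70, 11.65 and 11.84 on IL-4 arrays 1 to 4. All IL-4 arrays were higher than all PBS arrays, and the lowest IL-4 array stood 2.01 above the highest PBS array. The mean went from 8.72 ± 0.89 to 11.77 ± 0.12 (SD, n = 4 arrays), or 3.05 higher on the log2 scale (95% interval 2.29 to 3.82, adjusted p = 2.3e-04 from limma). This was the largest difference among the 8 genes. The promoter of Hapln2 is shown as that of the gene that rose most, for comparison with those of Plekhb1, which fell, and Ugt8, which did not pass. Promoter sequences are from RefSeq (build GRCr8), 250 bases before to 50 after the start of the gene, 5′ to 3′ on its strand, with matches to the motifs described further on in capitals.
Hapln2, chr2:175794389-175794688, minus strand: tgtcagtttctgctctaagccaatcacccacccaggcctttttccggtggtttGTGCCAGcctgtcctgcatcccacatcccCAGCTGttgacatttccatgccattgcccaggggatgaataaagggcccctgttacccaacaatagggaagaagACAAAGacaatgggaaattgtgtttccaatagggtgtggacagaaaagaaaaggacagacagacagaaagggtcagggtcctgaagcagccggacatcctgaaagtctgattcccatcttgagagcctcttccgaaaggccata

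Ermn encodes ermin, also called juxtanodin, an actin-binding protein of oligodendrocyte processes and the outer myelin layers. The PBS arrays read 8.50, 11.33, 9.92 and 10.86 and the IL-4 arrays 12.41, 12.74, 12.66 and 12.49. The groups did not overlap, but PBS array 2 came within 1.08 of the lowest IL-4 array, and the PBS arrays spanned 2.83. With IL-4 the mean log2 signal was higher by 2.42 (95% interval 1.37 to 3.47, adjusted p = 0.0038 from limma).

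Ndrg1 encodes a cytoplasmic protein of myelinating glia whose loss causes a demyelinating neuropathy in humans. Its signal was 9.54, 11.51, 10.67 and 11.85 on the PBS arrays and 12.97, 13.33, 13.06 and 13.08 on the IL-4 arrays. Again the lowest PBS value came from array 1, while the highest came from array 4. The mean log2 signal was higher by 2.22 (95% interval 1.34 to 3.09, adjusted p = 0.0023 from limma), and 1.12 separated the groups.

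Plekhb1, which encodes evectin 1, a membrane protein with a pleckstrin homology domain that is abundant in oligodendrocytes, went the other way. It read 13.15, 12.67, 12.98 and 13.19 on the PBS arrays and 11.42, 11.32, 11.44 and 11.58 on the IL-4 arrays. No arrays overlapped, and the PBS arrays spanned only 0.52. The difference in log2 signal was -1.56 (95% interval -1.86 to -1.26, adjusted p = 4.6e-05 from limma), which is the smallest adjusted p of the 8 genes. Its relative Plekhb2 had a log2 difference of 0.11 (adjusted p = 0.59 from limma). The promoter of Plekhb1 is given in the same way.
Plekhb1, chr1:164425123-164425422, minus strand: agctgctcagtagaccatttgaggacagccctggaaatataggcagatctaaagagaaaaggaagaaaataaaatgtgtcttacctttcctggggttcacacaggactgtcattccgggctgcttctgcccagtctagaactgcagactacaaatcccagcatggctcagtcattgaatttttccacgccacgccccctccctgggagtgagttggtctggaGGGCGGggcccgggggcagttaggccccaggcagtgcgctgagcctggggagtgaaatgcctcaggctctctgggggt

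The 3 late genes of lipid and acetate metabolism did not pass the test. Ugt8 encodes ceramide galactosyltransferase, which makes the myelin lipid galactosylceramide. It read 17.36, 17.74, 17.44 and 17.28 on the PBS arrays and 17.61, 17.57, 17.60 and 17.61 on the IL-4 arrays, so PBS array 2 exceeded every IL-4 array. The log2 difference was 0.14 (95% interval -0.12 to 0.41, adjusted p = 0.40 from limma), and quantile normalization turned it to -0.0052. The promoter of Ugt8 follows.
Ugt8, chr2:217007118-217007417, minus strand: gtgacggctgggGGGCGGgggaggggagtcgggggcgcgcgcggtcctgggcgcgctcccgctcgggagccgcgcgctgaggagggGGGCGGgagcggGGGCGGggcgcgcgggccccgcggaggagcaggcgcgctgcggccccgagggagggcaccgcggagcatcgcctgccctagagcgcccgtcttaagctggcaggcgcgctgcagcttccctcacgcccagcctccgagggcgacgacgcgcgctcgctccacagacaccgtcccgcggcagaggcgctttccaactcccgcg

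Fa2h encodes the fatty acid 2-hydroxylase that supplies hydroxylated chains for the same lipid. Its PBS arrays read 11.93, 12.88, 12.29 and 12.71 and its IL-4 arrays 12, 12.04, 12.20 and 12.05. Here 3 PBS arrays lay above all IL-4 arrays and array 1 lay below them. The log2 difference was -0.38 (95% interval -0.79 to 0.034, adjusted p = 0.15 from limma). Without PBS array 1 it was -0.55 and passed the test (adjusted p = 0.024 from limma).

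Aspa encodes aspartoacylase, which frees acetate from N-acetylaspartate and is lost in Canavan disease. It read 16.30, 16.79, 16.47 and 16.34 on the PBS arrays and 16.75, 16.79, 16.56 and 16.63 on the IL-4 arrays. The groups overlapped through PBS array 2, which equalled the highest IL-4 array. Aspa thus had a log2 difference of 0.21 (95% interval -0.083 to 0.50, adjusted p = 0.25 from limma). For Ugt8, Fa2h and Aspa the 95% interval from limma leaves out a 2-fold change in either direction, although smaller changes lie within it. That interval pools the spread of both conditions. For Fa2h the SD was 0.43 on the PBS arrays and 0.088 on the IL-4 arrays. An interval allowing for unequal spread was not computed, so for Fa2h the exclusion of a 2-fold fall rests on this pooling.

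Of the 2 early genes, only Bcas1 could be tested. Bcas1 encodes a protein of newly myelinating oligodendrocytes. It read 15.26, 15.67, 15.39 and 15.60 on the PBS arrays and 15.91, 15.78, 15.98 and 16.16 on the IL-4 arrays. The groups were separated by 0.11 only. The log2 difference was 0.48 (95% interval 0.19 to 0.77, adjusted p = 0.019 from limma), and without IL-4 array 4 it no longer passed (adjusted p = 0.060). Enpp6 encodes a choline-specific glycerophosphodiesterase of newly formed oligodendrocytes. The probe set that the study names Enpp6 read 17.08, 16.12, 16.39 and 16.44 on the PBS arrays and 15.17, 15.18, 15.17 and 15.22 on the IL-4 arrays, a log2 difference of -1.32. Its groups did not overlap. Since its name was known only because the study listed the gene as lower, this direction was fixed by the choice and is no independent result.

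**Figure D2:**
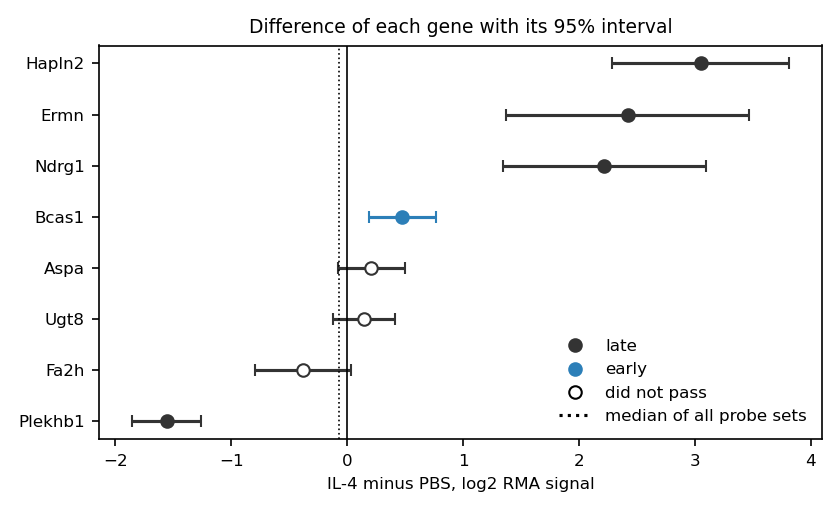
Difference between IL-4 and PBS arrays in log2 RMA signal (horizontal axis) for the 8 genes with a symbol of their own in the probe table, with 95% intervals from limma (n = 4 arrays per condition). Filled points passed the test, open points did not, and the dotted line is the median of all probe sets at -0.068. The interval of Hapln2 runs from 2.29 to 3.82 and that of Plekhb1 from -1.86 to -1.26.

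The PBS arrays differed among themselves more than the IL-4 arrays did. The SD was higher on the PBS arrays for all 8 genes, beside 67.6% of all probe sets, and at least 5 times as high for 4 of the 8 (Hapln2, Ermn, Ndrg1 and Ugt8), beside 9.52% of all. PBS array 1 was the lowest PBS array for 6 of the 8 genes and PBS array 2 the highest for 6. Hapln2, Ermn, Fa2h and Bcas1 shared the same order of the 4 PBS arrays. Plekhb1 departed from it, with array 2 lowest and array 4 highest.

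Markers of other stages also differed between the PBS arrays. The mean of 27 other mature oligodendrocyte genes was 12.40 on PBS array 1 and 13.36 on PBS array 2, while IL-4 gave 13.19 to 13.26. Over 9 OPC genes the mean was in turn highest on PBS array 1 (13.40) and lowest on PBS array 2 (12.65), and IL-4 gave 12.98 to 13.06. Pdgfra, the growth factor receptor of OPCs, read 15.07, 12.73, 14.04 and 14.17 with PBS and 14.03 to 14.09 with IL-4. Of the 9 OPC genes 1 rose (C1ql1), 1 fell (Sox10) and 7 did not pass. C1ql1 overlapped between the conditions, with 14.15 on both PBS array 2 and IL-4 array 1. Olig1, Olig2 and Sox10 are also lineage transcription factors, so they are not particular to OPCs, and the fall of Sox10 is counted again among those factors. What part the differences between PBS arrays had in the results was not tested. Without PBS array 1 the log2 differences were 2.68 for Hapln2, 1.87 for Ermn, 1.77 for Ndrg1 and -1.51 for Plekhb1, all with an adjusted p of 0.0017 or less from limma, and 0.40 for Bcas1 (adjusted p = 0.046).

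**Figure D3:**
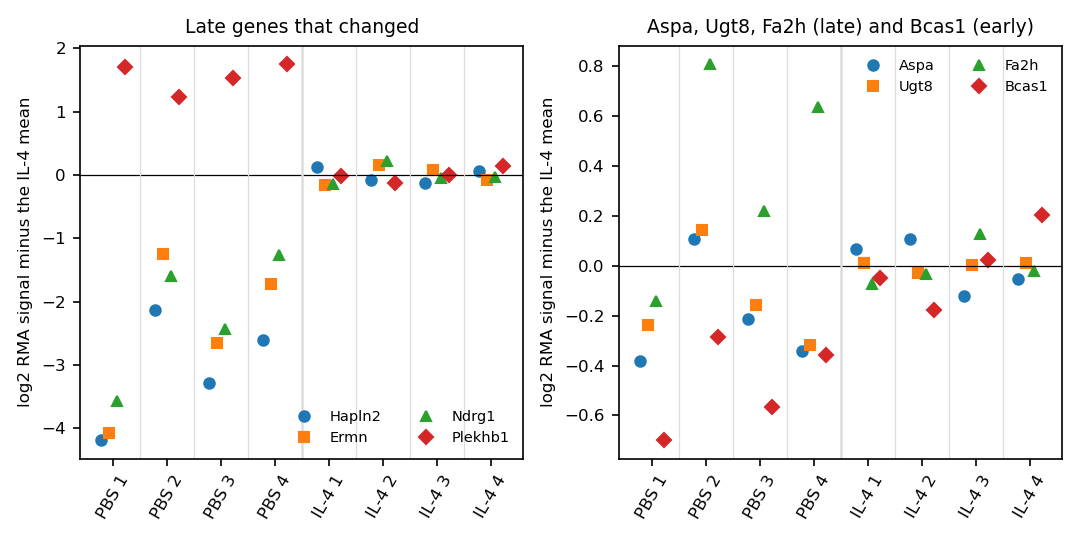
Log2 RMA signal of each gene on each array (horizontal axis) minus the mean of its 4 IL-4 arrays (vertical axis, 2 scales). The IL-4 arrays centre on 0 by construction. The PBS arrays spread more widely, though only slightly so for Bcas1 (range 0.41 with PBS and 0.38 with IL-4). PBS array 1 is the lowest PBS array for Hapln2, Ermn, Ndrg1, Aspa, Fa2h and Bcas1.

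Markers of other cell types were counted in the same way. Of 12 microglial genes 6 rose, 2 fell and 4 did not pass, and their mean ran from 8.45 to 9.93 with PBS and from 9.23 to 9.33 with IL-4. PBS array 4 was the highest. For 9 astrocyte genes the mean ran from 8.89 to 9.30 and from 9.22 to 9.47 (3 rose, 3 fell), that of 10 neuronal genes from 7.44 to 7.98 and from 7.47 to 7.57 (3 rose, 2 fell), and that of 9 vascular genes from 5.13 to 5.27 and from 5.12 to 5.23 (2 rose, 4 fell). By the methods' 2-group test of equal variance, 3 microglial genes rose and 2 fell, 3 astrocyte genes rose and 2 fell, 2 neuronal genes rose and 0 fell, and 0 OPC genes rose and 1 fell. For scale, the median over 1057 olfactory receptor genes, taken as dim, was 4.04 and 4.10, and every gene of the 8 lay above their 95th percentile of 5.45 and 5.51 in both conditions. The vascular means lay below that percentile, as did 6 of the 9 vascular genes in both conditions, among them the 4 that fell (Cdh5, Pdgfrb, Rgs5 and Col3a1), and so did Tmem119, 1 of the 2 microglial genes that fell. Without PBS array 4, the log2 differences were 3.2 for Hapln2, 2.66 for Ermn, 2.54 for Ndrg1, -1.49 for Plekhb1 and 0.52 for Bcas1, each still past the test. The part of these cells in the results was not tested.

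As context, other lineage genes were counted in lists chosen by function. Of the 27 other mature oligodendrocyte genes, 9 rose, 2 fell and 16 did not pass, with a median log2 difference of 0.32. The methods' 2-group test gave 7 higher and 3 lower. Mal, a proteolipid of mature myelin, had a log2 difference of 3.31 (adjusted p = 0.0065 from limma), and Apod, a lipid carrier of mature oligodendrocytes, one of 2.07 (adjusted p = 0.0015). Mal read 4.99, 9.30, 7.37 and 8.83 with PBS and 10.85 to 11.04 with IL-4. Its value on PBS array 1 lay within the range of the dim olfactory receptor genes. The genes that fell were Nipal4, with a log2 difference of -2.44 (adjusted p = 4.7e-05), and Tppp3, which went from a mean of 7.05 to 5.50 (adjusted p = 0.0014), a level within the range of the dim olfactory receptor genes. Plekhb1 was therefore not the only mature marker that was lower.

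The list of newly formed oligodendrocyte genes held both directions. Of its 13 genes measured beside Bcas1, 1 rose, 6 fell and 6 did not pass, with a median of -0.18. Among those that fell, Nkx2-2 is counted again with the lineage transcription factors and Fyn with the actin genes. Casr, the calcium-sensing receptor, read 12.96, 9.42, 10.86 and 10.52 with PBS and 6.46 to 6.89 with IL-4, a log2 difference of -4.20 (adjusted p = 5.1e-04 from limma). PBS array 1 was its highest array, the reverse of Hapln2 and Ermn. The small GTPase gene Rras2 and the scaffold gene Cnksr3 had log2 differences of -1.61 and -1.58, and the gene that rose was Sema5a, a semaphorin, with 1.05. Gpr17, a receptor of this stage, did not pass (log2 difference 0.19, adjusted p = 0.52).

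Of 13 lineage transcription factors, 1 rose, 4 fell and 8 did not pass. Nkx2-2, St18, Myrf and Sox10 had log2 differences of -0.84, -0.79, -0.67 and -0.46, and Id2, an inhibitor of differentiation, one of 1.04. Myrf and Sox10 are the main activators of myelin genes.

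**Figure D4:**
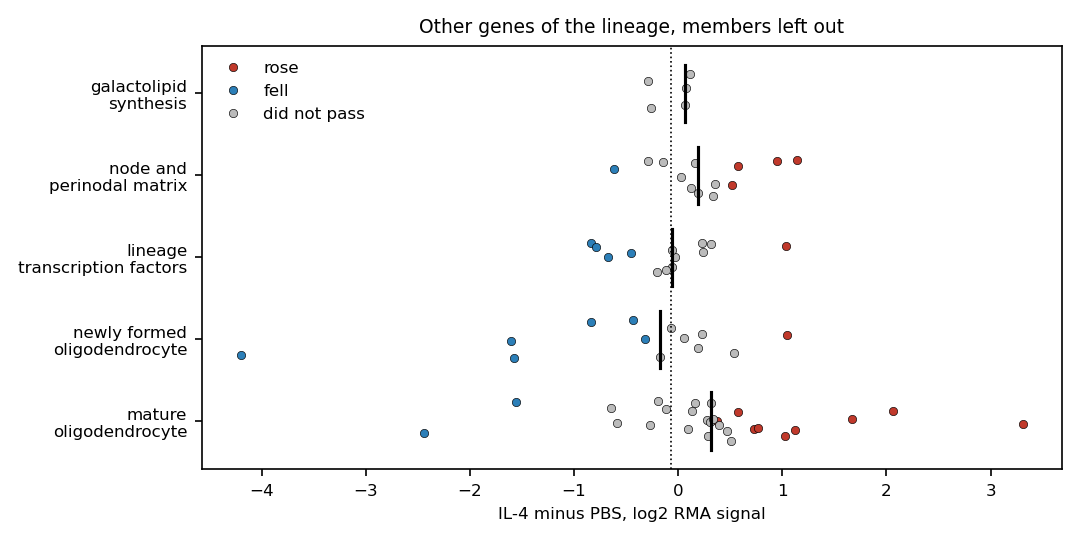
Difference between IL-4 and PBS arrays in log2 RMA signal (horizontal axis) for other genes of 5 lists, with the 9 maturation genes left out, coloured by whether they rose, fell or did not pass at an adjusted p under 0.05 from limma. Black bars are list medians and the dotted line is the median of all probe sets at -0.068. Of the mature genes 9 rose and 2 fell, and of the newly formed genes 1 rose and 6 fell. Vertical spread within a list has no meaning.

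Functional neighbours of the maturation genes were counted in turn. In the synthesis of galactolipids, 0 of 7 measured genes passed, Ugt8 and Fa2h included (limma, adjusted over all probe sets). At an unadjusted p under 0.05, 0 were higher and 1 lower, and by the methods' 2-group test of equal variance 0 passed after adjustment. Degs1, a ceramide desaturase, came closest with a log2 difference of -0.29 (adjusted p = 0.092). Of 5 genes that break galactolipids down, the acid ceramidase Asah1 fell by 0.71 on the log2 scale (adjusted p = 0.0013) and the other 4 did not pass. Of 5 genes that handle N-acetylaspartate or acetate beside Aspa, the cytosolic acetyl-CoA synthetase Acss2 fell by 1.77 on the log2 scale (adjusted p = 0.0043).

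The matrix and cytoskeletal partners also held both directions. Of 13 genes of the node and its matrix beside Hapln2, 4 rose, 1 fell and 8 did not pass. The proteoglycans Ncan and Vcan had log2 differences of 1.14 and 0.95, Tnr one of 0.52, and the axonal and glial adhesion molecule Cntn1 one of -0.62. Cntn2 is the fourth gene counted as risen, and is also 1 of the 9 mature genes counted so, but its means of 4.86 and 5.43 lay within the range of the dim olfactory receptor genes in both conditions. Of 12 genes of the ezrin family and of actin beside Ermn, 4 rose and 2 fell. Msn, Gsn and Cfl1 had log2 differences of 1.44, 0.76 and 0.32, and Cttn and Fyn, which fell, had -0.41 and -0.32. Gsn is also counted among the mature genes that rose. Ezr went from a mean of 5.44, within the range of the dim genes, to 6.02, and Msn is also strongly expressed by microglia. In the NDRG family Ndrg2 rose by 1.08 and Ndrg3 fell by 0.33 on the log2 scale, while Ndrg4 did not pass. A further list held 11 genes of choline phospholipid turnover, to which Enpp6 belongs, and of other glycerophosphodiesterases. The 2 that rose were the glycerophosphodiesterase genes Gde1 and Gdpd2 (0.65 and 0.62). The 3 that fell were Enpp2, Chka and Chkb (-0.80, -0.56 and -0.36). By the methods' 2-group test 0 rose and 2 fell. Gdpd2 overlapped between the conditions, with PBS array 1 (8.31) above IL-4 array 1 (8.22).

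Profiles were compared by the root mean square difference over the 8 arrays after each gene's own mean was subtracted, among 9566 named genes with a mean of at least 5 in both conditions. Among the 8 genes themselves Aspa and Ugt8 were most alike (0.086), then Ugt8 and Bcas1 (0.22), and Ermn and Ndrg1 differed by 0.27. Outside them, the nearest to Hapln2 were Selenop (0.32) and Abca1 (0.34). Hmcn1 and Sema7a were nearest to both Ermn (0.26 and 0.31) and Ndrg1 (0.21 and 0.17). Eif2b1 and Man2a1 were nearest to Plekhb1 (0.16 and 0.16), and Copg2 and the lineage factor Olig1 to Aspa (0.030 and 0.049). Camta2 and Sar1a were nearest to Ugt8 (0.037 and 0.050), Ervfrd-1 and Neu1 to Fa2h (0.10 and 0.11), and Phospho1 and Pip4k2a to Bcas1 (0.078 and 0.087). A small difference is easier to reach for a gene that moves little, so these values are not comparable between genes.

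Promoters were matched by symbol for 6 of the 9 genes (Hapln2, Plekhb1, Aspa, Ugt8, Fa2h and Enpp6). The motifs, searched on both strands, were ACAAAG (SOX family), CTGGNAC (MYRF), CAGCTG (an E-box bound by OLIG factors), AGGTCA (the half-site of nuclear receptors, PPARs included), GGGCGG (the GC box of SP and KLF factors), TTCNNNGAA (STAT factors in general) and the STAT6 form with 4 bases between TTC and GAA. They occur in 18.8%, 18.2%, 15.1%, 16.2%, 33.1%, 8.9% and 7.3% of the 33469 promoters in the table. The Hapln2 promoter held 1 match each to the MYRF motif, the E-box and the SOX motif, which begin at positions -197, -168 and -94 from the start. The Enpp6 promoter held the same 3 motifs, of which the E-box and the MYRF motif, just after its start, overlap by 1 base. The Plekhb1 promoter held 1 GC box at -28 only, and the Ugt8 promoter 3. The E-box occurred once in the Aspa promoter and a GC box once in that of Fa2h. None of the 6 held either STAT motif or the AGGTCA half-site. GC content was 79.3% for Ugt8 and 74.3% for Fa2h, and 40.3% to 55% for the other 4, where the median of all promoters was 51.7%. A match describes letters in this window and is not evidence of binding.

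Because the IL-4 arrays lay close together (root mean square difference over all probe sets 0.27 to 0.30 between them, and 0.35 to 0.46 between PBS arrays), their 4 values were also averaged to a single sample, assumed to vary like the PBS arrays. The log2 differences stayed as they were, but none of the 5 calls passed, and 3 genes were higher and 1 lower at an unadjusted p under 0.05, beside 6.4% and 10.2% of all probe sets in that fit. Adjusted p from limma was then 0.065 for Plekhb1, 0.11 for Hapln2, 0.21 for Ndrg1, 0.24 for Ermn and 0.36 for Bcas1.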

How the data were processed

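The series holds 8 Affymetrix Clariom S rat arrays of OPC cultures, 4 given PBS and 4 IL-4. Per the labels and the methods, the authors processed the images in Affymetrix Expression Console, and the deposited values are log2 RMA signals for 23188 probe sets, analysed by them in Transcriptome Analysis Console 4.0. Array medians lay between 6.13 and 6.16. The precision of each value rests on 4 arrays per condition. The build named in the labels is rn6. Promoters come from RefSeq GRCr8, so no array coordinates are given.

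The 15049 probe sets with a single symbol in the array's probe table were named from it, and all their gene IDs were found in RefSeq. The others were tested unnamed. Where a gene had several, the probe set with the highest mean was used. The contrast of IL-4 minus PBS was fitted by lmFit and eBayes of limma 3.58.1 (R 4.3.3), two-sided, with Benjamini-Hochberg adjustment over all 23188 probe sets and no covariate. The words rose and fell are used for an adjusted p under 0.05. The fit was also run on simulated data in which both conditions had the same SD for each probe set. Since the PBS arrays here spread more than the IL-4 arrays, that run cannot show how the fit behaves with unequal spread. Lists, promoters and figures used Python 3.11.15 (pandas 2.3.3, matplotlib 3.10.9). Nothing in the labels ties arrays to separate litters, so p-values measure the spread between these arrays.

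The members, the gene lists and the rule for named genes (every member, up to 3 genes per list with the largest change, or the one with the smallest p where none passed, and the 2 nearest profiles per member) were chosen with earlier results of these data known. Sema5a, Tppp3, Myrf, Sox10, C1ql1, Tmem119, Cdh5, Pdgfrb, Rgs5, Col3a1, Tnr, Cntn2, Cfl1, Cttn, Fyn, Ndrg4, Chka and Chkb were named to complete a count, and Gpr17 and Pdgfra for their role, after their values were seen. Alternatives were quantile normalization, median subtraction, a filter on dim probe sets, a trended robust prior, array weights per treatment, averaged IL-4 arrays, the replicate number as a block, the methods' t-test and each array left out in turn.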

Additional observations from a re-analysis of the deposited data

Results flagged for a closer look

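Among 64 sets of 4 arrays examined for 32 named genes, 3 held a value far from the other three, and none belonged to the maturation genes themselves. Chance is expected to single out about 1 in 20 such sets. Asah1 read 12.57 on IL-4 array 1 and 12.75 to 12.78 on the other IL-4 arrays. Msn read 13.73 on IL-4 array 1 and 13.52 to 13.54 on the others. Id2 read 10.18 on IL-4 array 2 and 9.76 to 9.82 on the others.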

How the results depend on the processing

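Of 16 alternatives per gene, every one kept the direction of Hapln2, Ermn, Ndrg1, Plekhb1, Bcas1, Aspa and Fa2h, and Ugt8 turned to -0.0052 after quantile normalization. With the IL-4 arrays averaged, 0 genes were higher and 0 lower, and 56 probe sets were higher and 16 lower in all. That setting changes both the number of IL-4 samples, from 4 to 1, and the source of the spread, and their parts were not separated. Without dim probe sets 1764 probe sets were higher, from fewer probe sets tested. Leaving out each array in turn gave 3 to 4 members higher and 1 to 2 lower, where Bcas1 was lost without IL-4 array 4 and Fa2h was gained without PBS array 1. In the same fits 2103 to 2896 of all 23188 probe sets were higher and 3478 to 4572 lower. Hapln2, Ermn, Ndrg1 and Plekhb1 passed in 15 of 16 alternatives, with differences of 2.68 to 3.36, 1.87 to 2.82, 1.77 to 2.54 and -1.67 to -1.39. By the methods' t-test the adjusted p was 0.0079 for Hapln2, 0.039 for Ermn, 0.029 for Ndrg1, 0.0019 for Plekhb1 and 0.038 for Bcas1. After quantile normalization 3279 probe sets were higher and 3582 lower, against 2776 and 4563. With the replicate number as a block, 4 members were higher and 1 lower, as before, and 2527 and 4013 probe sets. Same-numbered arrays did not deviate together (correlations -0.018 to 0.0059). Because the IL-4 arrays deviate little from each other, this does not decide whether the numbers pair the samples. Each gene has 1 probe set, so the alternative of a dimmer probe set could not be run.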
